A study of Homo sapiens with 46 samples.

Results

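The comparison described here sets the silencing of mitochondrially encoded subunits of complex I against the silencing of mitochondrially encoded subunits of complex IV. It covers 30 of the 46 RNA-seq libraries of the series. On the complex I side stand 19 libraries of 5 treatments, directed against the mRNAs of ND1, ND2, ND3, ND4L and ND5. On the complex IV side stand 11 libraries of 3 treatments, directed against those of COX1, COX2 and COX3. The members were taken by treatment label, and each treatment counted equally within its side. In every treatment HEK293T cells, a line derived from human embryonic kidney, were treated for 48 h with one chimera at 2 µM, in which a morpholino oligonucleotide is joined to pCox4, a yeast targeting peptide that carries it into mitochondria. Each treatment has 4 libraries, except ND2 (replicates 1, 3 and 4) and COX2 (replicates 2, 3 and 4) with 3 each. Replicates 1 and 2 belong to batch 1 and replicates 3 and 4 to batch 2, which gives 9 and 10 libraries on the complex I side and 5 and 6 on the complex IV side. Control cells were given pCox4 that carried no morpholino, in the buffer of the click reaction, and their 4 libraries appear below as a level beside the treatments and in no difference. Each protein was targeted by 1 morpholino, so an effect of the subunit and an effect of that oligonucleotide cannot be told apart. The libraries come from bulk RNA of 1 cell line, in which less RNA per cell and a loss confined to some of the cells cannot be told apart.

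Complex I oxidises NADH and passes its electrons to ubiquinone, and complex IV, cytochrome c oxidase, passes electrons from cytochrome c to oxygen. Both pump protons across the inner mitochondrial membrane, and both are assembled from subunits encoded in the nucleus and in mitochondrial DNA (mtDNA). Human mtDNA is copied into long transcripts from both strands, and these are cut into rRNAs, tRNAs and mRNAs, in many places at the tRNAs that lie between the other genes. The strand called heavy templates most of the genes. MT-ND6 and a group of tRNAs are read in the opposite direction.

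The morpholinos bind at or near the start of the mRNA they target, and 5 of the 8 are shown because their extracted sequences matched the GENCODE 29 mRNA in full. Each is given 5′ to 3′, as the reverse complement of the mRNA, with capitals for the bases that pair with the first codon. The ND1 oligonucleotide covers mtDNA positions 3307 to 3323 (GRCh38), the first 17 bases of the MT-ND1 coding sequence.
ND1: aggttggccatgggTAT
ND5: tggttatagtagtgtgcatggtT
COX1: gtcaacggtcggcgaaCAT
COX2: cctacttgcgctgcatgtgcCAT
COX3: catgtgattggtgggtCA
The ND5 oligonucleotide covers positions 12339 to 12361 in MT-ND5, the COX1 oligonucleotide 5904 to 5922 in MT-CO1, the COX2 oligonucleotide 7586 to 7608 in MT-CO2 and the COX3 oligonucleotide 9208 to 9225 in MT-CO3. All 5 sites lie in the coding exon of a gene read in the direction of the reference strand. The text in hand for the ND2, ND3 and ND4L oligonucleotides did not match their targets over the full length and is not printed.

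Total counts per library ranged from 20519514 to 27301986 on the complex I side and from 18876395 to 100698084 on the complex IV side, where COX3 replicate 4 alone exceeded 28121898. The markers of the line were detected in all 30 libraries (KRT8, KRT18, VIM, CDH2, NEFL, NEFM and PAX2), with a summed level of 1133 to 1359 CPM (counts relative to the library size) on the complex I side and 1122 to 1331 CPM on the complex IV side. The 11 markers of blood, endothelial, liver, stromal and muscle cells summed to 24.9 to 35.5 CPM and 27.1 to 33.9 CPM. Most of this sum was COL1A1, with 20327 counts over the 30 libraries. ACTA1 had 2102 counts, and each of the other markers had at most 495. Genes of mtDNA took 4.53% ± 0.377 of the counts on the complex I side (SD, n = 19) and 4.59% ± 0.423 on the complex IV side (SD, n = 11). Within batches the means were 4.26% and 4.23% in batch 1 and 4.77% and 4.88% in batch 2, a mean difference of -0.042 percentage points that a two-sided permutation test of 100000 resamples within batches did not separate from 0 (p = 0.685).

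The transcriptomes of the 2 sides differed in few genes, and those were nearly all encoded in mtDNA. Of 20272 genes tested, 13 passed an adjusted p of 0.05 (edgeR quasi-likelihood test with a batch term, Benjamini-Hochberg adjustment over all genes), or 0.0641%. The 2 (0.00987%) that were higher on the complex I side than on the complex IV side were MT-CO1 and MT-ND2. The 11 (0.0543%) that were lower were the rRNAs MT-RNR1 and MT-RNR2, the tRNAs MT-TL1, MT-TN, MT-TC, MT-TY and MT-TP, the mRNAs MT-ND4, MT-ND5 and MT-ND6, and LDHA, the only nuclear gene. Higher and lower refer to the other side and not to the control. MT-CO1 had means of 11391 CPM on the complex I side, 9998 CPM on the complex IV side and 12002 CPM in the control. For LDHA these means were 760.4, 817.8 and 726.5 CPM. By genome, 12 of 34 mtDNA genes (35.3%) and 1 of 20238 nuclear genes (0.00494%) passed. At an unadjusted p under 0.05 the numbers were 1264 of all genes (6.24%), 25 of the 34 mtDNA genes (73.5%) and 1239 of the nuclear genes (6.12%). With the replicate number as a block in place of the batch, 24 genes passed, 16 of mtDNA and 8 of the nucleus, and all 13 genes named above were among them. The 4 mtDNA genes added were the tRNA genes MT-TR, MT-TG, MT-TH and MT-TF, and the 8 nuclear genes were LDHA, RBM3, FUCA2, ETV4, TRIM41, MAN2B1, PSMD1 and SCAPER.

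**Figure D1:**
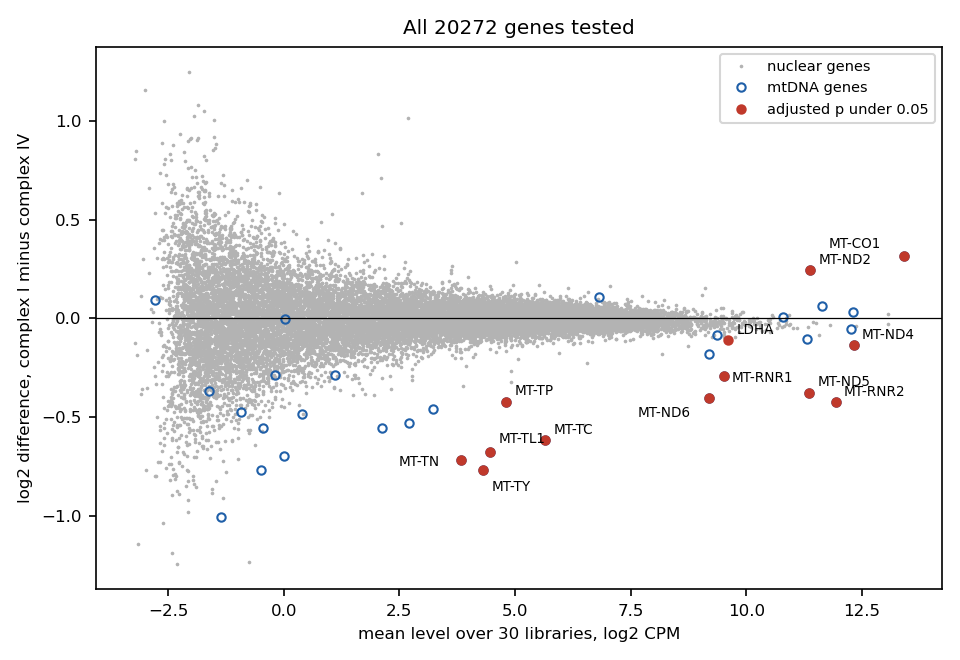
Each point is 1 of the 20272 genes tested, with its mean level over the 30 libraries (log2 CPM, horizontal) and its log2 difference, complex I minus complex IV (vertical); blue circles are the 34 mtDNA genes and red points the 13 genes past an adjusted p of 0.05. The red points are all mtDNA genes except LDHA, and 11 of the 13 lie below 0.

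The mtDNA transcripts were counted by kind of RNA. Both rRNAs were lower on the complex I side than on the complex IV side, with log2 differences of -0.43 and -0.29. Of the 22 tRNA genes 19 had counts enough to be tested, and 5 passed the test, all lower. A negative difference was found for 18 of the 19, beside 10597 of all 20272 genes. The median over the 19 was -0.53, beside -0.0034 over all genes tested. The 13 mRNAs were divided, 6 with a positive and 7 with a negative difference and a median of -0.052, and 2 of them passed the test as higher and 3 as lower. All 5 complex I treatments lay below all 3 complex IV treatments for 9 of the 34 mtDNA genes (26.5%), against 274 of all 20272 genes (1.35%), and above them for 0 of 34, against 245 of 20272 (1.21%). These were MT-RNR2, MT-ND5, MT-ND6 and MT-TP, which passed the test, and the tRNA genes MT-TF, MT-TM, MT-TG, MT-TR and MT-TH, which did not pass in this fit. RNA with poly(A) tails was enriched before sequencing, so the counts on rRNA and tRNA genes do not measure the whole pool of these RNAs, and the use of strand in counting is not given in the sources used here, so genes that lie opposite each other could share reads.

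**Figure D2:**
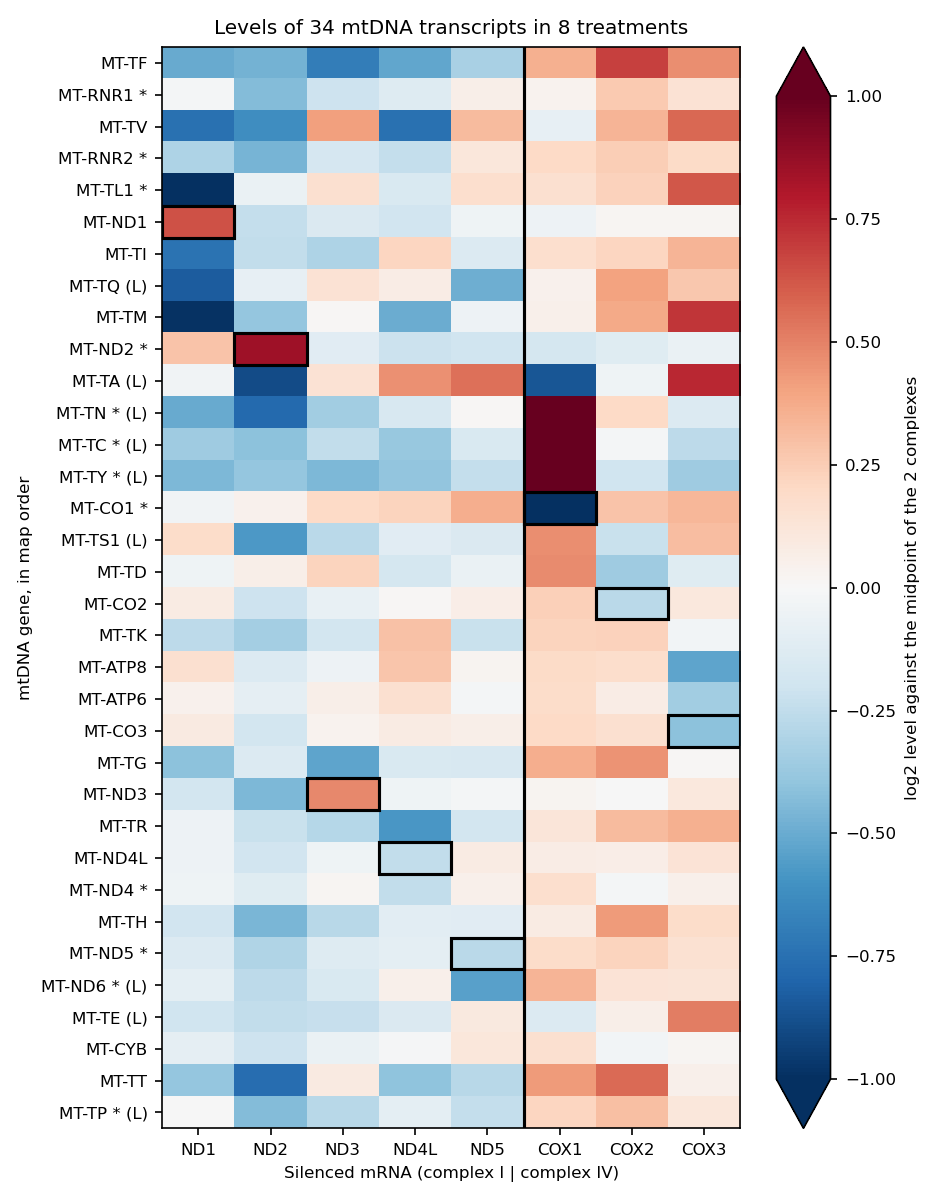
Level of each of the 34 mtDNA genes tested (vertical, in the order of the map; L marks genes read from the other direction, an asterisk an adjusted p under 0.05) in each of the 8 treatments (horizontal), as the batch-adjusted log2 level against the midpoint of the means of the 2 complexes; colours are capped at -1 and 1, and boxes mark the targeted mRNA. MT-RNR2, MT-ND5, MT-ND6 and MT-TP divide at the line between the complexes, while the strongest colours stand in single treatments, such as MT-TY in COX1 (1.70) and MT-TL1 in ND1 (-1.80).

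MT-RNR2, the rRNA of the large subunit of the mitochondrial ribosome (ENSG00000210082, mtDNA 1671 to 3229), had the smallest adjusted p among the transcripts whose treatment levels divided by complex. On the complex I side its level ranged from 2600 to 4928 CPM with a median of 3409 CPM. The complex IV side ranged from 4163 to 5265 CPM with a median of 4529 CPM. Of the 19 complex I libraries, 16 lay below every complex IV library, and the 3 that did not were ND5 libraries, which stood at 3847, 4183, 4928 and 4287 CPM. The log2 difference was -0.43 (standard error 0.034, adjusted p = 2.51e-12), which puts the complex I side at 0.745 of the complex IV side. It was -0.46 in batch 1 and -0.41 in batch 2. MT-RNR2 also differed among treatments of the same complex (adjusted p = 8.35e-06), from 2923 ± 317 CPM after ND2 silencing (SD, n = 3) to 4311 ± 452 CPM after ND5 silencing (SD, n = 4). The control stood at 3707 ± 280 CPM (SD, n = 4), between the medians of the 2 sides.

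MT-RNR1, the rRNA of the small ribosomal subunit (ENSG00000211459, mtDNA 648 to 1601), moved in the same direction by less. It ranged from 515 to 861 CPM on the complex I side (median 680 CPM) and from 726 to 936 CPM on the complex IV side (median 811 CPM). The ranges overlapped, with 13 of 19 complex I libraries below every complex IV library. The log2 difference was -0.29 (standard error 0.034, adjusted p = 6.01e-08). ND2 silencing gave the lowest mean, 541 ± 25.3 CPM (SD, n = 3), and the means after ND1 silencing, 732 ± 101 CPM, and ND5 silencing, 771 ± 82.3 CPM (SD, n = 4 each), were near that after COX1 silencing, 759 ± 46.4 CPM (SD, n = 4). The control was at 652 ± 31.7 CPM (SD, n = 4), beside means of 674 CPM on the complex I side and 818 CPM on the complex IV side.

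MT-ND5, which encodes a proton-pumping subunit at the far end of the membrane arm of complex I (ENSG00000198786, mtDNA 12337 to 14148), was lower in each complex I treatment than in each complex IV treatment, also where it was not the target. Its level ran from 1994 to 2778 CPM on the complex I side (median 2393 CPM) and from 2490 to 3411 CPM on the complex IV side (median 3155 CPM), and 13 of 19 complex I libraries were below every complex IV library. The log2 difference was -0.38 (standard error 0.052, adjusted p = 4.51e-05). Treatment means lay between 2165 ± 102 CPM for ND2 (SD, n = 3) and 2517 ± 235 CPM for ND4L (SD, n = 4) on one side and between 2991 ± 274 CPM for COX3 (SD, n = 4) and 3113 ± 333 CPM for COX2 (SD, n = 3) on the other. ND5 silencing itself gave 2227 ± 250 CPM, and without it the log2 difference was -0.35 (adjusted p = 0.000325). No difference among treatments of one complex was detected for MT-ND5 (adjusted p = 0.730). The control, at 2536 ± 294 CPM (SD, n = 4), was close to the upper complex I treatments.

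MT-ND6 encodes another membrane subunit of complex I and is the only mRNA read in the opposite direction (ENSG00000198695, mtDNA 14149 to 14673, directly after MT-ND5 on the map). Complex I libraries held 325 to 633 CPM (median 523 CPM) and complex IV libraries 624 to 818 CPM (median 664 CPM), so that 17 of 19 lay below the whole complex IV side. The log2 difference was -0.40 (standard error 0.041, adjusted p = 1.76e-08). The lowest mean followed silencing of its neighbour ND5, with 325, 434, 452 and 415 CPM, and 3 of these 4 libraries were below all others. Without the ND5 treatment the log2 difference was -0.32 (adjusted p = 2.31e-08). The highest mean followed COX1 silencing, at 749 ± 85.5 CPM (SD, n = 4), and the control was at 545 ± 19.5 CPM (SD, n = 4).

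MT-TP, the proline tRNA and the last gene of the map (ENSG00000210196, mtDNA 15956 to 16023), ranged from 18.7 to 34.5 CPM on the complex I side (median 25.1 CPM) and from 29.5 to 38.4 CPM on the complex IV side (median 32.8 CPM). These levels rest on 459 to 782 counts and 558 to 3010 counts. Again 17 of 19 complex I libraries were below every complex IV library; the log2 difference was -0.42 (standard error 0.069, adjusted p = 0.000974). ND1 silencing gave the highest mean of the complex I side, 28.9 ± 6.15 CPM (SD, n = 4), and ND2 silencing the lowest, 21.1 ± 1.69 CPM (SD, n = 3).

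MT-RNR1, MT-RNR2, MT-ND5 and MT-ND6 passed the test in all 8 fits with 1 whole treatment removed, and MT-TP in 7 of them, the exception being the fit without COX2 (adjusted p = 0.0502). MT-RNR1, MT-RNR2 and MT-ND6 also passed in each batch alone. MT-ND5 and MT-TP passed in batch 1 alone (-0.34 and -0.43). They did not pass in batch 2 alone (-0.36, adjusted p = 0.831, and -0.40, 0.9997). In a stricter fit treatments were a random block, with a common correlation within a treatment of 0.0486 for all genes. The spread among the treatments of a complex then counted as error, by that common value and not gene by gene. In this fit 3 genes passed: MT-RNR2 (log2 difference -0.41, adjusted p = 0.0202), MT-ND5 (-0.36, adjusted p = 0.0171) and MT-TP (-0.40, adjusted p = 0.0171).

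**Figure D3:**
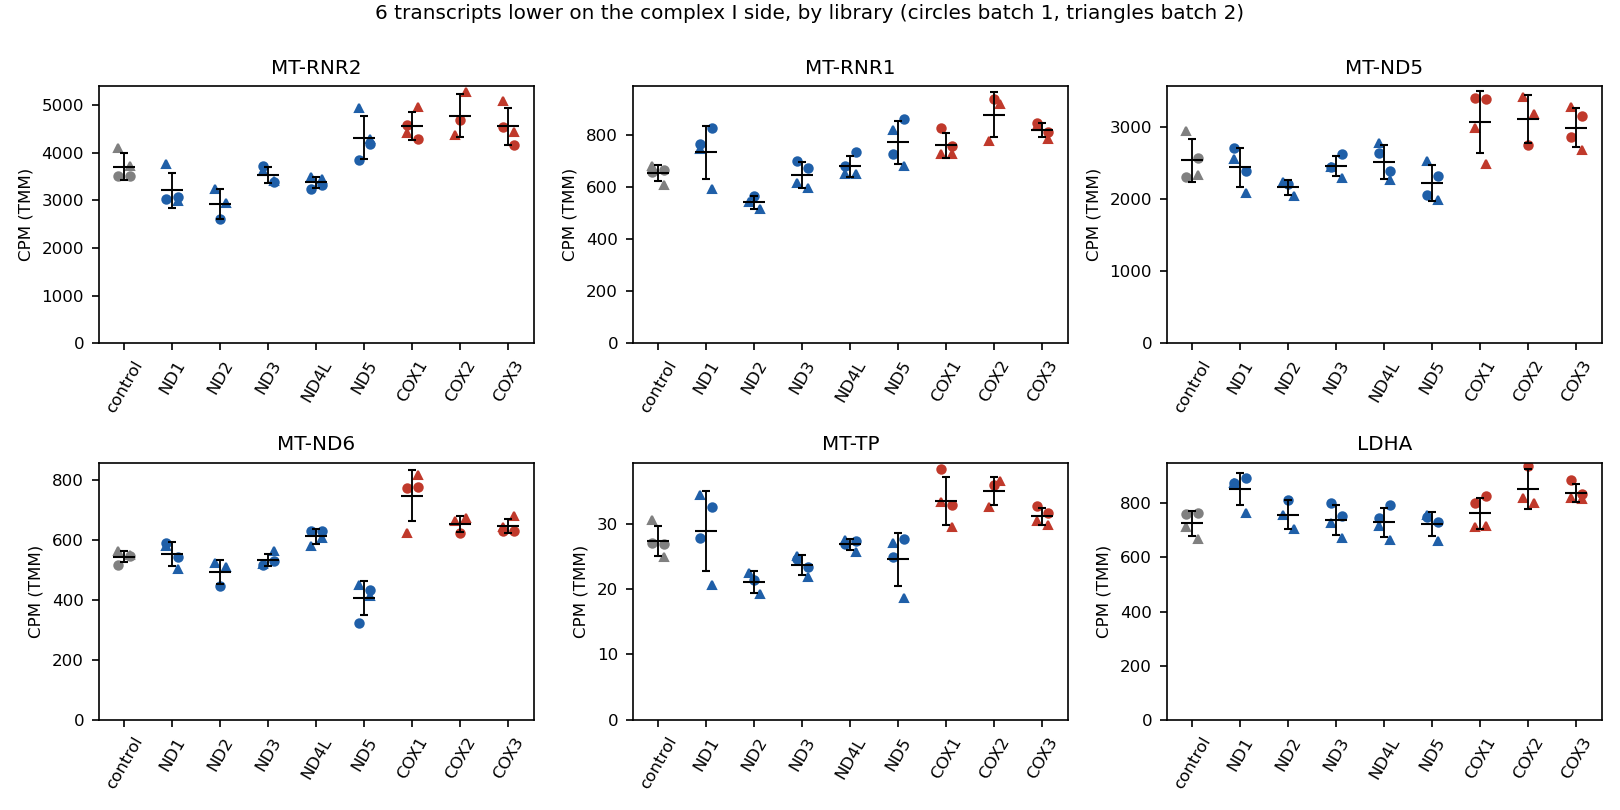
Level in each library (CPM, vertical) of 6 transcripts by treatment (horizontal), grey for the control, blue for complex I and red for complex IV; circles are batch 1, triangles batch 2, and bars show the mean ± SD of a treatment. The blue points of MT-ND5, MT-ND6 and MT-TP lie mostly below the red, the ND5 treatment reaches the red range for MT-RNR2, and the sides overlap most for LDHA.

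The other 5 tRNA genes whose treatments did not overlap had low levels, and the call on each of them changed with the tool or the block. MT-TF, the phenylalanine tRNA at the head of the map, had a median of 0.264 CPM on the complex I side and 0.551 CPM on the complex IV side, from counts that started at 3 on the complex I side. Its log2 difference of -1.01 (standard error 0.23) gave an adjusted p of 0.0548. MT-TM (methionine) stood at medians of 0.544 and 0.981 CPM, MT-TG (glycine) at 3.77 and 5.71 CPM, MT-TR (arginine) at 5.76 and 7.20 CPM and MT-TH (histidine) at 8.02 and 11.2 CPM. Their log2 differences were -0.77 (adjusted p = 0.121), -0.55 (0.180), -0.53 (0.348) and -0.46 (0.490). With the replicate number as a block in place of the batch, MT-TR (adjusted p = 0.000472), MT-TG (0.00184), MT-TH (0.0447) and MT-TF (0.0483) passed the test, all lower on the complex I side. With DESeq2 and a batch term MT-TF (adjusted p = 0.0232), MT-TM (0.0499) and MT-TG (0.0499) passed, as they did with DESeq2 on batch-corrected counts. MT-TT, the threonine tRNA, is not among these 5 genes, and its treatments overlapped. It passed in both DESeq2 fits (adjusted p = 0.0485 and 0.0282), and not with edgeR (-0.695, 0.117). Without the COX1 treatment MT-TM (0.0223) and MT-TF (0.0422) passed.

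A separate set of calls rested on 1 treatment each. The tyrosine, cysteine and asparagine tRNA genes MT-TY, MT-TC and MT-TN lie side by side just before MT-CO1 and are read in the opposite direction. MT-TY (ENSG00000210144, mtDNA 5826 to 5891) stood at 52.1, 63.4, 66.6 and 50.0 CPM in the COX1-silenced libraries, and between 11.2 and 17.9 CPM in the other 26. MT-TC (ENSG00000210140, mtDNA 5761 to 5826) stood at 113.6, 106.8, 119.0 and 107.4 CPM after COX1 silencing and between 29.6 and 58.9 CPM in the others. All 4 COX1 libraries were therefore above every other library for both tRNAs. MT-TN (ENSG00000210135, mtDNA 5657 to 5729) stood at 29.8, 23.9, 27.5 and 28.9 CPM against 5.40 to 25.8 CPM, with 3 of the 4 COX1 libraries above the rest. The log2 differences between the sides were -0.76 for MT-TY (standard error 0.050, adjusted p = 9.83e-19), -0.62 for MT-TC (0.059, 1.46e-08) and -0.71 for MT-TN (0.091, 1.00e-05). Without the COX1 treatment they were -0.10 (adjusted p = 0.588), -0.16 (0.419) and -0.39 (0.141).

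MT-CO1, the mRNA of the catalytic subunit of complex IV (ENSG00000198804, mtDNA 5904 to 7445), was the target in 1 of the 3 complex IV treatments. Complex I libraries held 8924 to 14460 CPM (median 11629 CPM). The COX1-silenced libraries held 4626, 3961, 4845 and 5661 CPM, and COX2 and COX3 silencing gave means of 12482 ± 86.3 CPM (SD, n = 3) and 12738 ± 581 CPM (SD, n = 4). The difference of 0.32 between the sides (standard error 0.040, adjusted p = 5.12e-06) became -0.15 without the COX1 treatment (adjusted p = 0.115). MT-ND2, the mRNA of a proton-pumping subunit of complex I (ENSG00000198763, mtDNA 4470 to 5511), was the counterpart on the complex I side. It stood at 3949, 5409 and 4874 CPM after its own silencing and between 1966 and 3375 CPM in the other 27 libraries, of which the ND1-silenced ones held 2932, 3319, 3375 and 2807 CPM. Its log2 difference of 0.24 (standard error 0.034, adjusted p = 1.00e-05) fell to 0.062 without the ND2 treatment (adjusted p = 0.915). MTND2P28, a nuclear pseudogene copy of MT-ND2 with which it can exchange reads, showed a log2 difference of 0.16 (adjusted p = 0.201) and was also highest after ND2 silencing.

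**Figure D4:**
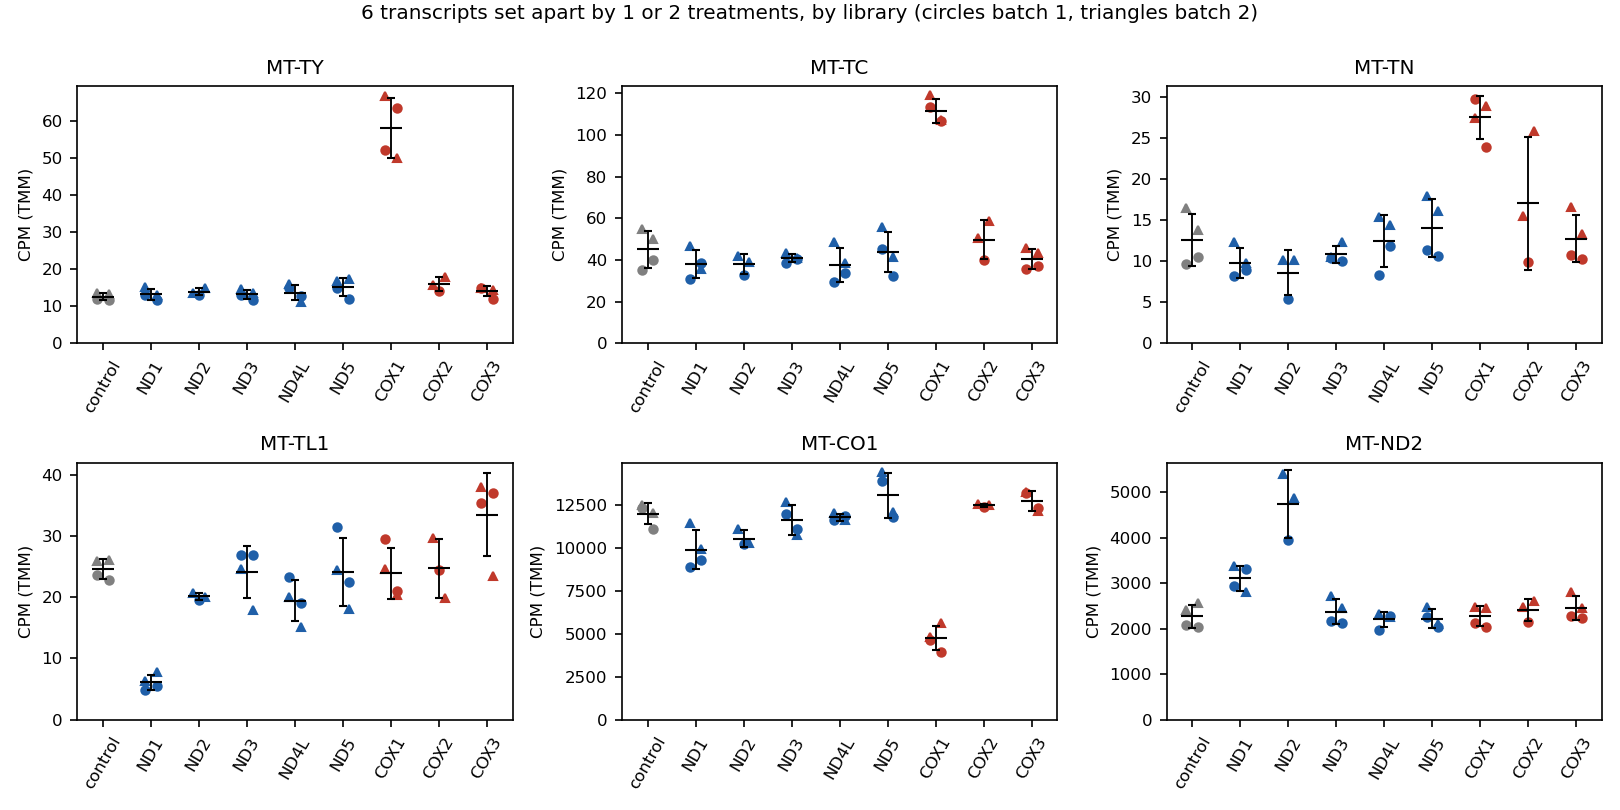
Level in each library (CPM, vertical) of 6 transcripts by treatment (horizontal), with colours, symbols and bars for the control, the complexes, the batches and the mean ± SD as in the plot of the transcripts lower on the complex I side. MT-TY and MT-TC separate in the COX1 treatment, where MT-CO1 is at 3961 to 5661 CPM, MT-TL1 separates in the ND1 treatment and MT-ND2 is highest in the ND2 treatment.

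MT-TL1, a leucine tRNA that ends 2 bases before MT-ND1 (ENSG00000209082, mtDNA 3230 to 3304), was lowest after ND1 silencing, with 4.91, 5.56, 6.39 and 7.76 CPM against 15.2 to 38.0 CPM in the other 26 libraries. All 4 ND1 libraries were below every other library. The difference between the sides was -0.67 (standard error 0.087, adjusted p = 1.25e-05), and -0.31 without the ND1 treatment (adjusted p = 0.304). MT-ND1 mRNA itself did not pass the test between the sides (log2 difference 0.010, standard error 0.039, adjusted p = 0.984) and was highest in the same treatment, at 2673 ± 271 CPM (SD, n = 4) against treatment means of 1499 to 1791 CPM. MT-ND4, a further complex I mRNA whose first bases overlap the end of MT-ND4L by 7 bases (ENSG00000198886, mtDNA 10760 to 12137), was at 3648, 4015, 4858 and 4776 CPM after ND4L silencing, within the 3917 to 7153 CPM of the other libraries except for the first. Its difference of -0.13 (standard error 0.028, adjusted p = 0.0193) passed in 20 of 30 fits that left out 1 library, and it did not pass without the ND4L treatment (-0.089, adjusted p = 0.421), nor without ND2 (-0.12, 0.150), COX1 (-0.082, 0.328) or COX3 (-0.14, 0.123).

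After these values were seen, those of MT-TL1 among them, the gene lying immediately before each targeted mRNA in its own direction was examined. Of 6 such genes with a tested level, 5 had their lowest level of the 8 treatments where the next gene was silenced, and MT-TM ranked 3 from the lowest; one of these 5 was MT-TL1, which had prompted the comparison. For MT-TR, MT-TG and MT-TM all complex I treatments lay below all complex IV treatments, so that their lowest level could fall in 5 treatments only. Of the libraries concerned, 4 of 4 for MT-TL1, 2 of 4 for MT-ATP6, 1 of 4 for MT-TR, 0 of 4 for MT-TG and 0 of 3 for MT-TD were below all others. Of 7 tested genes lying immediately after a targeted mRNA, 2 had their lowest level in that treatment, MT-TI (isoleucine) after MT-ND1 and MT-ND4 after MT-ND4L, and 1 its highest. MT-TL1 before MT-ND1 was 1.96 log2 units under the mean of the other 7 treatments. MT-TR, the arginine tRNA before MT-ND4L, was 0.59 under it, MT-TG before MT-ND3 0.53, MT-TD (aspartate) before MT-CO2 0.40 and MT-TM before MT-ND2 0.33. MT-ATP6, which encodes a subunit of the proton channel of ATP synthase and overlaps MT-CO3 by 1 base, was 0.41 under it after COX3 silencing. Differences among treatments of the same complex passed the test for MT-TL1 (adjusted p = 1.00e-07) and MT-ATP6 (6.04e-10), and not for MT-TM (0.476), MT-TG (0.736), MT-TR (0.868) or MT-TD (0.597), whose levels were 0.545 to 4.54 CPM in the treatment concerned. The targeted mRNAs had no common direction: 4 of 8 were lowest and 3 of 8 highest where they were targeted. MT-CO1 (1.29 log2 units under the others), MT-CO3 (0.48), MT-CO2 (0.30) and MT-ND4L (0.26) were the lowest, and MT-ND2 (0.94 over the others), MT-ND1 (0.73) and MT-ND3 (0.56) the highest.

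The remaining mtDNA mRNAs did not pass the test between the sides. The log2 differences were -0.18 for MT-ND4L (standard error 0.072, adjusted p = 0.712), -0.11 for MT-CYB, the cytochrome b of complex III (0.033, 0.455), -0.085 for MT-ND3 (0.082, 0.930) and -0.052 for MT-CO2 (0.045, 0.920). MT-CO3 stood at 0.035 (standard error 0.036), MT-ATP6 at 0.062 (0.029) and MT-ATP8, the other mtDNA subunit of ATP synthase, at 0.11 (0.11). These 3 depended on single treatments. MT-ATP6 passed as higher without COX1 (0.17, adjusted p = 0.00571), and without COX3 it was -0.097 (0.898). In the fits without 1 treatment MT-CO3 ran from -0.16 to 0.14 and MT-ATP8 from -0.125 to 0.23.

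In the nuclear genome LDHA was the gene that passed. LDHA encodes the lactate dehydrogenase subunit that turns pyruvate into lactate at the end of anaerobic glycolysis (ENSG00000134333). Its level ranged from 660 to 895 CPM on the complex I side (median 753 CPM) and from 713 to 937 CPM on the complex IV side (median 819 CPM). The sides overlapped, with 4 of 19 complex I libraries below the complex IV range. The log2 difference was -0.11 (standard error 0.024, adjusted p = 0.0499), or 0.927 of the complex IV side. Treatments did not divide by complex: ND1 silencing gave 852 ± 60.1 CPM (SD, n = 4), like COX2 with 852 ± 73.7 CPM (SD, n = 3) and COX3 with 838 ± 33.2 CPM (SD, n = 4), while COX1 silencing gave 763 ± 57.7 CPM (SD, n = 4), near the 758 ± 54.6 CPM of ND2 (SD, n = 3). The control stood at 726.5 ± 46.2 CPM (SD, n = 4). LDHA passed in 6 of 30 fits that left out 1 library, with adjusted p from 0.0133 to 0.225, and in 2 of the 8 that left out a treatment, those without ND1 (0.000382) and without COX1 (0.00144).

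LDHA belongs to a list of 23 genes of glycolysis and lactate export, whose other members did not pass the test. Of the 23, 19 had a negative difference, beside 10597 of all 20272 genes. An unadjusted p under 0.05 was found for 11 of these 19, beside 3.44% of all genes tested with such a p in that direction. The list's median was -0.055, beside -0.0034 over all genes tested. SLC2A1, the glucose transporter, stood at -0.10 (standard error 0.030, adjusted p = 0.360), HK2, a hexokinase, at -0.095 (0.029, 0.415), ENO1, an enolase, at -0.085 (0.026, 0.443) and PFKP, a phosphofructokinase, at -0.073 (0.024, 0.505). These 4 were chosen after their values were seen. ENO2 (0.032) and SLC2A3 (0.027) had the highest values. The median lay between -0.075 and -0.035 in the fits that left out 1 treatment.

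**Figure D5:**
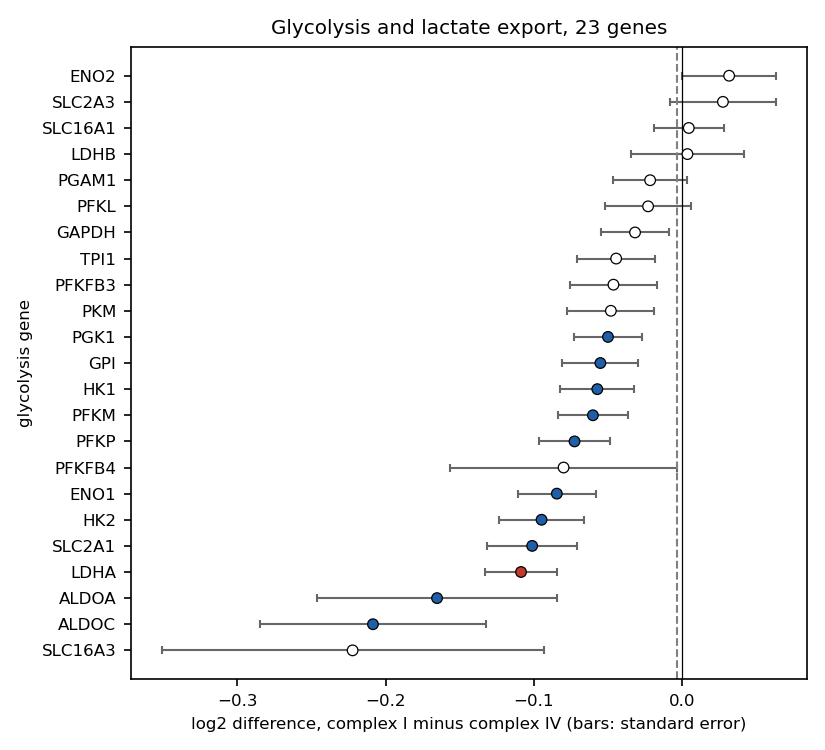
Log2 difference, complex I minus complex IV (horizontal, with the standard error), for 23 genes of glycolysis and lactate export (vertical); red marks an adjusted p under 0.05, blue an unadjusted p under 0.05 and white the rest, and the dashed line is the median of all genes tested. Of the 23 points 19 lie below 0, and LDHA is the red one.

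No member of the other 18 nuclear lists passed the test, and their medians ran from -0.055 (NRF2 targets) to 0.043 (p53 targets). The nuclear genes of the complexes compared were among them: the 37 tested subunits of complex I had a median of -0.019 (range -0.11 to 0.054) and 0 members even at an unadjusted p under 0.05, and the 12 subunits of complex IV a median of -0.014 (range -0.047 to 0.027) and 0 members. The 2 members with the smallest p were NDUFA6 (-0.064, adjusted p = 0.890) and NDUFB9 (-0.055, 0.867) for complex I and COX5A (-0.044, 0.892) and COX6C (-0.045, 0.957) for complex IV. Assembly factors stood at medians of -0.011 for complex I (19 genes) and -0.025 for complex IV (26 genes). The 78 genes of the mitochondrial ribosome had a median of -0.020, with 6 lower and 1 higher at an unadjusted p under 0.05. Over all genes tested the shares at such a p were 3.44% lower and 2.79% higher. The 79 genes of the cytosolic ribosome had a median of -0.033 (69 of 79 negative, beside 10597 of all 20272 genes) with 1 in each direction. Their median level by treatment ran from 0.087 after ND1 silencing to -0.079 after ND3 silencing, both on the complex I side. The 40 genes of mtDNA expression include the RNA polymerase and the processing enzymes of mtDNA. Their median was -0.0094, with 3 higher and 4 lower, beside the same 2.79% and 3.44% over all genes. MTERF2, a mitochondrial transcription termination factor family member, stood at 0.10 (standard error 0.043, adjusted p = 0.714) and TUFM, a mitochondrial elongation factor, at -0.061 (0.027, 0.740).

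Among stress programs no gene passed the test. Of 37 targets of ATF4, the transcription factor of the integrated stress response, 9 had an unadjusted p under 0.05 as lower and 1 as higher, beside 3.44% and 2.79% of all genes, and the median was -0.030. STC2, a secreted glycoprotein, stood at -0.11 (standard error 0.032, adjusted p = 0.347) and TRIB3, a pseudokinase, at -0.11 (0.036, 0.545). Targets of NRF2, which drives antioxidant genes, had a median of -0.055 over 20 genes, with 5 lower at an unadjusted p under 0.05. Negative differences were found for 19 of the 20, beside 10597 of all 20272 genes. SLC7A11, the cystine transporter, stood at -0.14 (0.055, 0.648). In the other direction, 23 targets of p53 had a median of 0.043, with 5 higher and 1 lower, and BTG2, an antiproliferative gene, stood at 0.082 (0.026, 0.455). The 24 genes of cholesterol synthesis had a median of 0.030 with 2 higher and 0 lower. Hypoxia targets (20 tested, median -0.019), the TCA cycle and its shuttles (33, -0.0078) and mitochondrial chaperones and proteases (19, -0.030) had no member past the test, nor had the other complexes of the respiratory chain and ATP synthase (30, -0.019) or targets of MondoA (7, -0.016). The 22 immediate early and ERK response genes had a median of -0.028 with 5 lower, ETV4, a transcription factor, at -0.34 (0.11, 0.524). ETV4 did pass with the replicate number as a block (-0.33, adjusted p = 0.0114). The 40 histone genes tested had a median of 0.020 with 5 higher and 1 lower, HIST1H2BJ at 0.35 (0.10, 0.317). The genes with the smallest p among those higher that did not pass were SCAPER (0.17, adjusted p = 0.0886), THNSL2 (0.32, 0.0916), RSRP1 (0.17, 0.123), MTND2P28 (0.16, 0.201) and CBLB (0.17, 0.261). DESeq2 with a batch term called SCAPER (adjusted p = 0.0292) and THNSL2 (0.0361). On batch-corrected counts DESeq2 called SCAPER (0.0219), THNSL2 (0.038) and MTND2P28 (0.0492).

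The number of nuclear genes past the test, 1 with all treatments, varied with the libraries and filter used: it was 6 without COX1 replicate 4, 5 without the ND4L treatment, 5 in batch 1 alone and 6 without a filter, and 0 with RLE size factors, with nuclear library sizes, with only the 30 libraries, without a batch term and with treatment as a random block. Fits that left out 1 library gave 0 to 6. Without the COX1 treatment 30 of 20258 genes passed (0.148%), 10 of mtDNA and 20 of the nucleus, and 8 of the 13 calls were kept. The 5 nuclear genes with the smallest p in that fit, named after their values were seen, were LDHA (-0.16, adjusted p = 0.00144), SCAPER (0.26, 0.00184), BTG2 (0.16, 0.00491), PSMD1, a proteasome subunit (-0.14, 0.0101), and RSRP1 (0.24, 0.0134). Over the batch-adjusted treatment levels SCAPER was at 0.090 after COX1 silencing, in the range of the complex I treatments (0.051 to 0.13), and at -0.15 and -0.20 after COX2 and COX3 silencing.

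More genes passed the test within a complex than the test between the complexes. The first took any difference among treatments and the second an averaged difference, in which single treatments can cancel. The counts therefore do not show which kind of difference is larger. A test of any difference among the 5 complex I treatments or among the 3 complex IV treatments passed for 66 of 20272 genes (0.326%), 15 of mtDNA (44.1% of those tested) and 51 of the nucleus (0.252%), and for 157 with the replicate number as a block. The 51 include MTND2P28 (adjusted p = 1.25e-13) and MTCO1P12 (3.67e-07), nuclear genes named after their values were seen. They were farthest from the midpoint after ND2 (0.83) and COX1 silencing (-1.03), as were MT-ND2 and MT-CO1. Of the 13 genes that differed between the complexes, 11 also passed this test (84.6%), the exceptions being MT-ND5 and MT-TP. ND5 silencing was the treatment farthest from the midpoint for 22 of the 51 nuclear genes, ND4L for 10 and ND1 for 9. PHYH, an enzyme of peroxisomal fatty acid oxidation, stood at -0.87 after ND5 silencing and between 0.011 and 0.17 in the other treatments (adjusted p = 7.14e-13). GPR180 stood at -0.57 there (adjusted p = 6.55e-08), PRDX3, the mitochondrial peroxiredoxin, at -0.27 (1.33e-06) and MAP2, a microtubule protein, at 0.52 (2.79e-06). TXNIP and ARRDC4, both targets of the glucose sensor MondoA, passed as well (adjusted p = 0.000769 and 0.0206), TXNIP with its lowest level after COX1 silencing (-0.23) and its highest after ND3 silencing (0.13). These 6 genes, from PHYH to ARRDC4, were chosen after their values were seen. Without the ND1 treatment the test passed for 28 genes, and without ND5 for 31.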

How the data were processed

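After poly(A) enrichment and sequencing, the authors deposited raw counts of reads per gene for 46 libraries, without normalization; the aligner, the counter and the use of strand are not given in the sources used here, and the submitters' processing notes name GRCh38.p12. Reads are single-end in the sample records and paired-end in the study's methods. All 58735 gene identifiers and positions match GENCODE release 29. The deposited table also holds a gene length in bases, another value used in 1 alternative. The members and the gene lists were chosen with earlier results of these data known.

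The counts of all 46 libraries were fitted with edgeR 4.0.16 under R 4.3.3 (TMM, quasi-likelihood test, terms for treatment and batch, 20272 genes kept by filterByExpr with a minimum count of 10). The contrast set the mean of the 5 complex I treatments against that of the 3 complex IV treatments, an F test took the differences within a complex, and Benjamini-Hochberg adjustment ran over all genes tested. CPM values are TMM-normalized except for marker sums, and treatment levels are relative to the midpoint of the 2 complexes. Standard errors are the difference divided by the root of F. The procedure was tested on simulated counts. DESeq2 1.42.0 and limma 3.58.1 served in alternatives. Named genes were the 13 mtDNA mRNAs and the largest called differences with a mean of at least 1 CPM. To these came the called genes kept without each treatment, and the called members of each list or else the 2 with the smallest p. Where fewer than 10 genes were called in a direction, the 5 next by p were added. Genes chosen otherwise are said to be so, and only some of the mtDNA tRNA genes were described. Lists of mtDNA rRNAs and tRNAs were added after the counts were read.

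Samples with the same replicate number deviated together across treatments (98 pairs, correlation 0.193 to 0.809, mean 0.517). Pairs of the same batch with other numbers had a mean of 0.437, so most of the pairing comes from the batch. With the batch removed as well the means were 0.0343 for the same number and -0.126 for other numbers of the batch. Some pairing by number was therefore left within batches, which the batch term does not take up. The fit with the replicate number as a block passed 24 genes between the complexes and 157 within a complex. Replicates of a treatment differed by more than sampling noise (chi-square per degree of freedom 3.54 to 23.4). The study's methods call the replicates biological and place the batches on different days. Other silencing treatments of the series and the control were in the fit but not in the contrast. They entered the filter, the batch term and the common estimate of spread. With only the 30 libraries, 19907 genes were tested and 11 passed. Total counts ranged from 18876395 to 100698084.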

Additional observations from a re-analysis of the deposited data

Results flagged for a closer look

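In 78 groups of 4 libraries, formed by the 13 genes that differed between the complexes and the 6 treatments with 4 libraries, 3 had a library far from the others, where chance alone would give about 1 in 20. MT-RNR2 was at 3751 CPM in ND1 replicate 3, against 2981 to 3072 CPM in the other ND1 libraries. LDHA was at 762.9 CPM in ND1 replicate 4, against 875.0 to 895.1 CPM in the others. MT-TY was at 11.99 CPM in COX3 replicate 2, against 14.49 to 14.97 CPM in the others. Without the library concerned, the difference stayed past an adjusted p of 0.05 (edgeR quasi-likelihood test) for MT-RNR2 (-0.44, adjusted p = 1.34e-14) and MT-TY (-0.78, 2.87e-18), and not for LDHA (-0.10, 0.110). No variation of a difference between the complexes with the batch was detected. In edgeR 0 of 20272 genes passed an interaction test (666 at an unadjusted p under 0.05), and the smallest unadjusted p among the 13 genes was 0.204.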

How the results depend on the processing

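Across 51 alternatives the 13 differences between the complexes kept their direction, except that of MT-CO1, which was -0.15 without the COX1 treatment (where MT-CO1 is the target). Apart from that reversal, they fell short of the threshold in 74 instances of a gene and an alternative. The number of genes past it was 20 with DESeq2 on batch-corrected counts, 24 with the replicate block, 3 with treatment as a random block and 30 without the COX1 treatment, and 9 to 19 in the others; leaving out 1 library gave 11 to 19. Differences within a complex depended more on the processing: 66 genes as reported, 332 with DESeq2 on batch-corrected counts and 279 with a batch term in it, 366 without a filter, 157 with the replicate block, 21 without a batch term, 32 and 14 in batch 1 and batch 2 alone, 28 without the ND1 and 31 without the ND5 treatment. Leaving out 1 library gave 35 (ND1 replicate 2) to 101 (COX3 replicate 4, the deepest library), with 37 without ND1 replicate 3, 39 without ND5 replicate 2 and 41 without ND2 replicate 3; the cause was not tested. Depth limits the sparse tRNA genes: on the complex I side the lowest count in a library was 0 for MT-TA, 1 for MT-TS1, 2 for MT-TV and 3 for MT-TF.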
